A study of Mus musculus with 6 samples.

Results

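The high-numbered entries of the mouse miRBase catalogue are described here: mature miRNAs with a number of 1900 or higher, leaving out the hairpins miR-3070, miR-3071 and miR-3072. They were chosen by that number and on their own reads, with at least 10 raw reads summed over the 6 libraries. The rule found 70 of the 1906 miRNA rows. The 6 libraries were small RNA of mouse primary oligodendrocytes and of the extracellular vesicles (EVs) in their medium, with 3 libraries per group. Both groups came from C57BL/6N embryonic day 14 mice, and the cultures were kept in Sato medium with 1% horse serum. The vesicle samples (5 to 6 days in vitro) were what pelleted at 100000 g from serum-free Sato medium with B27 after 24 h. The cell samples were taken at 6 days in vitro. By its title, the study asked whether media supplements bring miRNAs that are purified along with vesicles. No library of medium alone was used here, and a pellet at that speed can also hold particles that are not vesicles. Whether the replicates are separate cultures is not in the labels. The p-values thus cover only the spread between these libraries, which may be technical.

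A miRNA is cut from a hairpin precursor, and either side of the hairpin, the 5p or the 3p arm, can be loaded into Argonaute. The seed, bases 2 to 8, does most of the target pairing. miRBase numbers follow the order in which entries were submitted, so a high number marks an entry from later, mostly sequencing-based, discovery rather than a family. Some late entries lie inside other non-coding RNAs such as tRNAs or small nucleolar RNAs (snoRNAs), which guide chemical modification of RNA. Others are mirtrons, whose hairpin ends are set by splicing of a short intron rather than by the Drosha enzyme. A name without 5p or 3p means that the catalogue lists only 1 mature product for the hairpin.

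RefSeq's table for GRCm38.p6 held a mature sequence for 58 of the 70 entries. Those the results turn on follow 5′ to 3′ with the seed in capitals. The first set is 4 of the 6 hairpins whose arms were both among the 70 entries, those with at least 1 arm tested between EVs and cells:
miR-3068-5p: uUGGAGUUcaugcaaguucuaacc
miR-3068-3p: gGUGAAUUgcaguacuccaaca
miR-3085-5p: aGGUGCCAuuccgagggccaagagu
miR-3085-3p: uCUGGCUGcuauggcccccuc
miR-1981-5p: gUAAAGGCugggcuuagacguggc
miR-1981-3p: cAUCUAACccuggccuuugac
miR-6516-5p: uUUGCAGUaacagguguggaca
miR-6516-3p: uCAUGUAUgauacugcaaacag

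The next set shows entries with the most reads, or with a difference between EVs and cells, from hairpins seen on 1 side:
miR-1983: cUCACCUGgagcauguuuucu
miR-3099-3p: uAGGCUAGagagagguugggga
miR-3535: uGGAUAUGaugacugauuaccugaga
miR-5121: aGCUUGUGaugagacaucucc
miR-6239: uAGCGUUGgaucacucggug
miR-8114: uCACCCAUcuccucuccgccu
miR-5100: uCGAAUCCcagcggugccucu

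The third set is the entries with a GC content of at least 70%, shown because their spread between EV libraries is described further on:
miR-5126: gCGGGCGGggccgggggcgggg
miR-6538: cGCGGGCUccggggcggcg
miR-2137: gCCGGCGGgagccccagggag
miR-6236: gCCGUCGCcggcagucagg
miR-8112: uCUCCGCCaccuccaccgca

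The last set is shown because nearly all of its EV reads came from 1 library:
miR-8117: gCUCGUGUggaacagaagggg
miR-5119: cAUCUCAUccuggggcugg
miR-5108: gUAGAGCAcuggaugguuu
miR-5110: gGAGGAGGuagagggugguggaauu

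The entries without a sequence in that table were miR-1927, miR-1948-5p, miR-1949, miR-3074-1-3p, miR-3075-5p, miR-3106-5p, miR-3970, miR-5099, miR-5112, miR-6540-5p, miR-7224-3p and miR-7666-3p. Seeds were mostly not shared: 84.5% of the 58 had a seed found in no other mouse entry of the table, against 60.5% of the 410 sequences available for the other 471 rows with at least 10 reads. miR-3085-3p and miR-3064-5p shared the seed CUGGCUG. miR-6240 shared its seed with miR-330-3p, miR-5129-3p with miR-455-5p and miR-1983 with miR-412-3p.

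High-numbered entries were rarely detected, and few of them held most of the reads. Of 1004 rows with such a number, 70 (6.97%) reached 10 reads, 295 had 1 to 9 reads and 639 had none. Of the 895 rows with lower numbers, 470 (52.5%) reached 10 reads. The 70 entries held 20107 reads in all, with a median of 28 reads per entry against 247 for the other 471 rows with at least 10 reads. Only 5 entries reached 1000 reads, 11 had at least 100 but fewer, and 54 had 10 to 99. miR-2137, miR-5099, miR-6236, miR-3068-3p and miR-1983 together held 67.6% of the reads. By number, 11 entries lay below 3000 with 6533 reads, 27 from there to below 4000 with 4673 and 9 from there to below 6000 with 4758. A further 9 lay below 6900 with 3650 reads, and the 14 entries of 6900 or higher held 493 reads. At the limit itself, 9 entries had 10 to 12 reads and 14 further rows had 8 or 9. Among the closest numbers below 1900, miR-1895 to miR-1899 had no read, and above it the first entry to reach 10 was miR-1927, with 11.

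EVs replicates 1, 2 and 3 had 431004, 313766 and 689475 counted reads, and Cells replicates 1, 2 and 3 had 156189, 126910 and 202358. The EV libraries therefore held most of the reads on which the entries were chosen. The 70 entries made up 1.41%, 0.824% and 0.859% of the reads of EVs replicates 1, 2 and 3, and 1.41%, 0.941% and 1.05% of those of Cells replicates 1, 2 and 3. The means were 1.03% ± 0.327 in EVs and 1.14% ± 0.248 in cells (SD, n = 3 each), and the groups overlapped. Counting error was small beside this spread, with a 95% exact binomial interval of 1.37% to 1.44% for EVs replicate 1, for example. Such intervals cover counting error only, since PCR reads are not independent molecules. Without miR-2137, the most read entry, the share was 0.761% ± 0.0478 in EVs and 0.996% ± 0.210 in cells. Each EV library then lay below each cell library (0.709% to 0.802% against 0.836% to 1.23%). In EVs replicate 1, miR-2137 alone held 45.1% of the reads of the 70 entries.

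**Figure D1:**
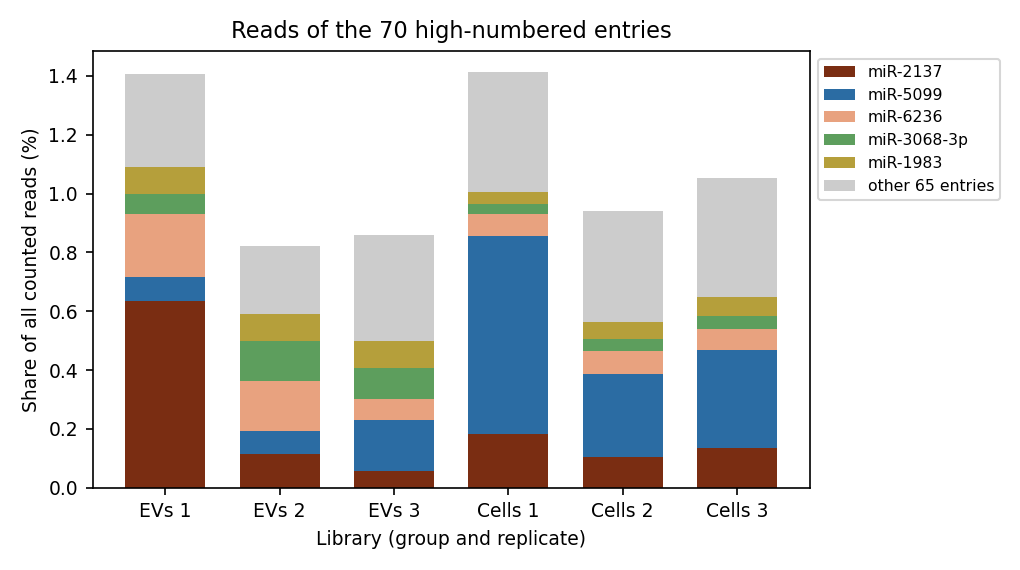
Share of all counted reads (%, vertical axis from 0) held by the 70 high-numbered entries in each of the 6 libraries, stacked by the 5 entries with most reads and the other 65. EVs replicate 1 (1.41%) stands above the other EV libraries (0.824% and 0.859%), and its largest segment is miR-2137, while miR-5099 is the most read single entry of every cell library.

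More entries had a read in an EV library (64 to 68 of 70) than in a cell library (48 to 62). Every entry had at least 1 read in the EV group. In the cell group, 6 entries were at 0 in all 3 libraries: miR-3069-3p, miR-3081-3p, miR-3106-5p, miR-3110-5p, miR-5110 and miR-8117. The depth differs between the groups, and 0 reads in the 3 cell libraries together still allows 6.18 CPM (reads relative to the total of a library). These entries reached the limit of 10 reads through their EV reads alone, so the direction follows from the rule and the ratios here are a description. The pooled EV level of miR-3106-5p (6, 6 and 11 reads) was 2.59 times that floor of 3 reads over the group. The ratio was 1.69 for miR-3069-3p (4, 2 and 9 reads) and 1.47 for miR-3081-3p (5, 4 and 4 reads). These ratios leave out the counting error of the few EV reads, so they are not lower bounds.

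EVs were compared with cells by edgeR's quasi-likelihood test over 336 miRNAs with enough counts, with Benjamini-Hochberg (BH) adjustment over all 336. Among them were 20 of the 70 entries. An entry that passed that filter only through the group where it is high was selected toward a difference, so counts over these 20 describe them and support nothing. No EV library of miR-1949, miR-6516-3p or miR-1981-3p reached the filter's limit of 38.8 CPM, and no cell library of miR-3085-5p did, so these 4 are such entries and their adjusted p-values below are a description. The other 16 reached it in libraries of both groups. miR-3085-3p and miR-3068-3p rose in EVs, and miR-1949, miR-6516-3p, miR-5099, miR-6239, miR-8114, miR-1981-5p, miR-1981-3p, miR-3535 and miR-3068-5p fell. The remaining 9 did not pass. That is 2 of 20 higher and 9 of 20 lower at an adjusted p below 0.05, where 28.6% of all 336 miRNAs were called higher and 28.9% lower. The median log2 fold change of the 20 was -0.67, against 0.06 over all 336, and the median standard error 0.35 against 0.28 for the others. Scaling by library size alone, without the composition factor (trimmed mean of M-values, TMM), moved the median of all 336 from 0.06 to 0.54. It then called 5 of the 20 higher and 6 lower, where 44% of all 336 were called higher and 17.9% lower. In RNA of a whole sample, fewer cells of a type and less RNA per cell cannot be told apart, so these are relative abundances.

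**Figure D2:**
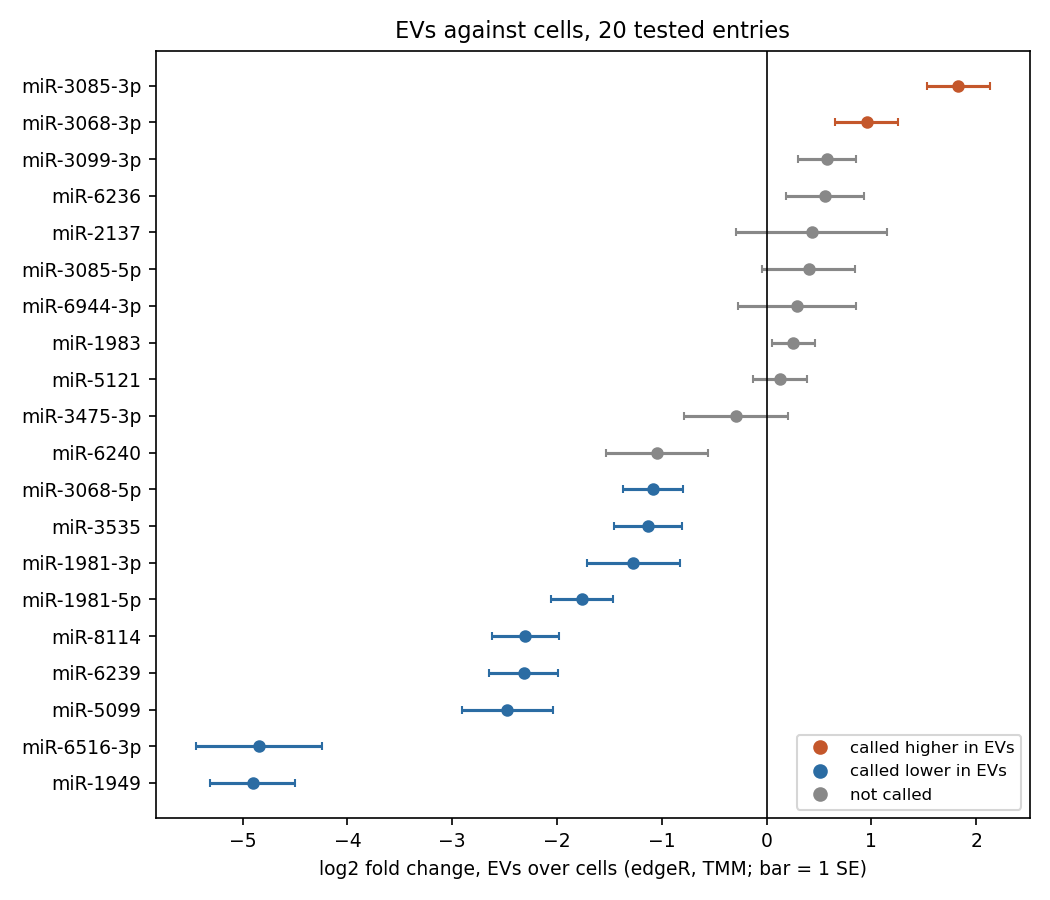
Log2 fold change of EVs over cells (horizontal axis) for the 20 tested entries, 1 per line, from edgeR with TMM scaling; bars are 1 SE and colour marks the call. The 2 called increases are 1.83 and 0.96, the 9 called decreases run from -1.08 to -4.90, and miR-2137 has the longest bar (SE 0.72).

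miR-1949 and miR-6516-3p fell by the largest and nearly equal amounts. The CPM of miR-1949 were 4.64, 19.1 and 16.0 in EVs replicates 1, 2 and 3 and 301, 236 and 326 in the cell libraries. All cell libraries lay far above all EV libraries, and the EV values rested on 19 reads. The log2 fold change was -4.90 (SE 0.40, edgeR BH-adjusted p = 2.36e-05).

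miR-6516-3p lies in an exon of Snhg20 and inside a small Cajal body RNA (scaRNA, a relative of snoRNAs) of the GENCODE annotation. It had 4.64, 9.56 and 5.8 CPM in EVs and 44.8, 229 and 158 CPM in cells, so the groups did not overlap although the cell libraries differed among themselves. Its 9 EV reads stood against 68 cell reads, and the log2 fold change was -4.85 (SE 0.60, edgeR BH-adjusted p = 0.000203).

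miR-5099 was the most read entry in every cell library. It had 826, 790 and 1738 CPM in EVs and 6729, 2821 and 3346 CPM in cells. The highest EV library stayed below the lowest cell library, while replicates within each group were uneven, with a coefficient of variation (CV, SD over mean) of 48.0% in EVs and 49.3% in cells. The log2 fold change was -2.47 (SE 0.44, edgeR BH-adjusted p = 0.00144).

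miR-6239 had 362, 271 and 226 CPM in EVs and 1364, 756 and 914 CPM in cells. The log2 fold change was -2.32 (SE 0.33, edgeR BH-adjusted p = 0.000377). miR-8114, within an exon of Glul (glutamine synthetase), had 46.4, 31.9 and 46.4 CPM in EVs and 102, 205 and 153 CPM in cells, and the log2 fold change was -2.30 (SE 0.32, edgeR BH-adjusted p = 0.000349). Neither entry overlapped between groups.

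miR-3535 lies within a snoRNA of Ncl, the gene of nucleolin. It had 274, 166 and 380 CPM in EVs and 551, 386 and 346 CPM in cells, and EVs replicate 3 lay above Cells replicate 3. The log2 fold change was -1.13 (SE 0.32, edgeR BH-adjusted p = 0.0134). The call did not pass with library size only (log2 fold change -0.62) or without Cells replicate 1 (-0.82).

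miR-3085-3p showed the larger of the increases. It had 408, 427 and 307 CPM in EVs and 83.2, 55.2 and 88.9 CPM in cells, every EV library above every cell library. The log2 fold change was 1.83 (SE 0.30, edgeR BH-adjusted p = 0.000938). Its other arm, miR-3085-5p, had 48.7, 41.4 and 43.5 CPM in EVs and 19.2, 15.8 and 34.6 CPM in cells, also without overlap. With 12 cell reads its log2 fold change was 0.40 (SE 0.45, edgeR BH-adjusted p = 0.492).

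The arms of miR-3068, a hairpin that GENCODE annotates as a snoRNA, went in opposite directions. miR-3068-3p had 668, 1374 and 1056 CPM in EVs and 339, 402 and 430 CPM in cells, with no overlap. Its log2 fold change was 0.96 (SE 0.30, edgeR BH-adjusted p = 0.0215). miR-3068-5p had 137, 150 and 120 CPM in EVs and 128, 213 and 282 CPM in cells, where Cells replicate 1 lay among the EV libraries. Its log2 fold change was -1.08 (SE 0.29, edgeR BH-adjusted p = 0.0100). The 3p call was lost without EVs replicate 2 (log2 fold change 0.52) or 3 (0.97), and without Cells replicate 2 (0.93) or 3 (0.99). The 5p call was lost without Cells replicate 3 (-0.82) and with library size only (-0.63).

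Both arms of miR-1981 fell. The hairpin runs from the 5′ splice site of a Marc2 intron to within 2 bases of the 3′ splice site, the layout of a mirtron. miR-1981-5p had 132, 118 and 220 CPM in EVs and 474, 315 and 361 CPM in cells, and miR-1981-3p had 37.1, 15.9 and 26.1 against 44.8, 39.4 and 54.4. Neither arm overlapped between groups. The log2 fold change of the 5p arm was -1.76 (SE 0.30, edgeR BH-adjusted p = 0.00115). For the 3p arm it was -1.27 (SE 0.44, edgeR BH-adjusted p = 0.0320). The 3p call was lost without Cells replicate 1 (-1.24) or Cells replicate 3 (-1.18), with library size only (-0.79) and with no filter on counts (-1.13).

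Of the tested entries that did not pass, miR-1983, which overlaps an isoleucine tRNA gene in RefSeq (strand not in the table), had the most even EV libraries. It had 916, 899 and 921 CPM in EVs (CV 1.29%) and 403, 599 and 672 CPM in cells. Every EV library was above every cell library in CPM, yet after TMM scaling the log2 fold change was 0.26 (SE 0.21, edgeR BH-adjusted p = 0.326), and with library size only it was 0.71 and passed. miR-3099-3p, in an intron of Usp29, had 575, 328 and 728 CPM in EVs and 198, 307 and 287 CPM in cells, and the log2 fold change was 0.58 (SE 0.27, edgeR BH-adjusted p = 0.0968). It too passed with library size only (1.05), and without EVs replicate 2 (0.69).

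miR-6236 had 2139, 1692 and 714 CPM in EVs and 762, 772 and 712 CPM in cells. EVs replicate 3 sat at the cell level, and the log2 fold change was 0.56 (SE 0.37, edgeR BH-adjusted p = 0.228). Without that library it was 0.89 and passed, as it did with library size only (1.02) and with no filter on counts (0.69). In the unfiltered fit its SE was 0.26, smaller than in the main fit despite the uneven EV libraries.
miR-2137, in an intron of Zfp185, had 6350, 1147 and 569 CPM in EVs and 1818, 1048 and 1339 CPM in cells. The EV libraries lay both above and below the cell libraries, and the log2 fold change of 0.43 had an SE of 0.72 (edgeR BH-adjusted p = 0.654). It was -1.17 without EVs replicate 1, and -0.22 with a block for the replicate number.

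miR-5121, inside Snord33 of Rpl13a, had 162, 207 and 241 CPM in EVs and 122, 158 and 128 CPM in cells, with no overlap and a log2 fold change of 0.13 (SE 0.26). miR-6944-3p, at the 3′ splice site of a Dbn1 intron, had 25.5, 41.4 and 66.7 CPM in EVs against 12.8, 47.3 and 24.7 in cells, and its log2 fold change was 0.29 (SE 0.56). miR-3475-3p had 39.4, 25.5 and 55.1 CPM in EVs against 12.8, 47.3 and 49.4 in cells. Its log2 fold change was -0.29 (SE 0.49), and 0.17 with library size only. For these 3 entries the edgeR BH-adjusted p was 0.656 to 0.705. miR-6240, tested but outside the rule for named entries, did not pass (log2 fold change -1.05, SE 0.48, edgeR BH-adjusted p = 0.0901).

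**Figure D3:**
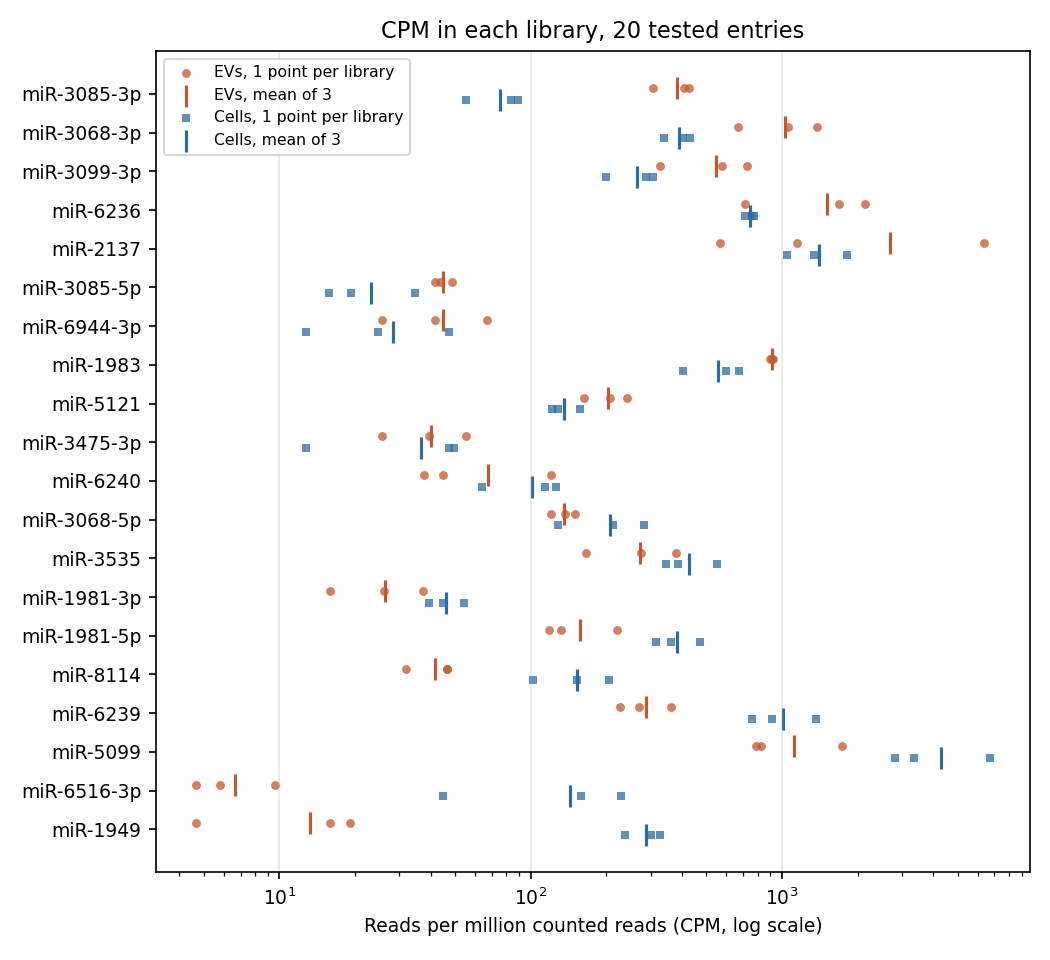
CPM in each library (log axis) of the 20 tested entries, ordered by fold change; circles are EV libraries, squares are cell libraries and vertical ticks are the means of 3. miR-1949 and miR-6516-3p show wide separation, miR-1983 the tightest EV points (899 to 921 CPM) and miR-2137 the widest spread of EV points (569 to 6350 CPM).

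The other 50 entries had too few counts for that test. Of them, miR-3074-5p had 10, 5 and 17 reads in EVs and 0, 1 and 2 in cells, and its partner miR-3074-1-3p had 9, 3 and 9 against 0, 0 and 2. miR-3084-5p had 4, 1 and 6 reads in EVs and 2, 3 and 5 in cells, and miR-3084-3p had 0, 3 and 7 against 0, 2 and 3. miR-6516-5p had 6, 1 and 8 reads in EVs and 2, 4 and 9 in cells. Of these 5, only miR-3074-5p (higher in EVs) and miR-3084-5p (lower in EVs) had groups that did not overlap in CPM. The 46 entries that the naming rule leaves out had 10 to 299 reads each, 44 of them under 100, and a median of their mean CPM of 10.2 in EVs and 8.64 in cells.

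Taken over all 541 rows with at least 10 reads, every EV library was above every cell library in CPM for 204 rows (37.7%) and below for 94 (17.4%). Among the 70 entries, 12 (17.1%) were above and 14 (20%) below. Within rows of 10 to 99 reads, 13% of 54 entries were above and 16.7% below, against 24.4% and 14.8% of 176 other rows. Within rows of 100 reads or more, 5 of 16 entries were above and 5 below (31.2% each), against 50.5% and 18.3% of 295 other rows.

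A looser filter, at least 10 CPM in at least 3 libraries, let 42 of the 70 entries into the edgeR fit. It called 3 of the 42 higher and 17 lower, where 26.1% of all 460 rows in that fit were called higher and 25.7% lower. With no filter on counts 7 of the 70 were higher and 16 lower, where 12.2% of all 1015 rows were higher and 10.9% lower. In that fit the SE of miR-2137, with its uneven EV libraries, was 0.25 against 0.72 in the main fit. For miR-8114 it was 0.42 against 0.32. Errors there followed the replicate spread of an entry less closely, so its calls are not like those of the filtered fits. The entries called in these fits but not among the 20 are named after their values were seen. Lower in both fits were miR-5100, miR-3970, miR-6516-5p, miR-6238 and miR-5126. miR-3084-5p, miR-3059-5p and miR-7688-5p were called lower under the looser filter and not with no filter. miR-1969, miR-7685-5p and miR-8103 were fitted, and called lower, with no filter alone. miR-5100, in an intron of Mief2, had 0, 1 and 2 reads in EVs and 8, 4 and 7 in cells. Its share of pooled reads was 18.7 times as high in cells (95% exact interval of counting error 5.51 to 98.7), and its log2 fold change was -4.44 under the looser filter (edgeR BH-adjusted p = 0.000352). miR-3970 had 4, 3 and 7 reads in EVs and 5 in each cell library. Its log2 fold change was -2.08 (edgeR BH-adjusted p = 0.00445). miR-6516-5p fell as its 3p arm did, by 1.98 on the log2 scale (edgeR BH-adjusted p = 0.0163). On the higher side miR-3106-5p, at 0 in all cell libraries, was called in both fits, and miR-8117, miR-5112 and miR-5119 with no filter. With at most 1 cell read each, all of these reached the limit of 10 reads through their EV reads. Their direction thus follows from the rule, and these calls are a description. Under the looser filter, miR-5100, miR-6516-3p and miR-3084-5p reached 10 CPM in cell libraries alone and miR-3106-5p in EV libraries alone. They were thus selected toward a difference, and their calls and adjusted p-values are a description.

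Replicates of the EV group differed more for some of these entries than for other rows of like depth. The spread was measured as the chi-square of an entry's counts against the library totals, divided by its degrees of freedom, which is near 1 for sampling noise alone. For entries with at least 100 reads but under 1000 its median in EVs was 8.85 (n = 11), against 3.11 for 161 other rows, and in cells 1.92 against 1.42. For entries with 10 to 99 reads the EV median was 0.854 in both the 54 entries and the 176 other rows. miR-2137 had the highest value of all 541 rows in EVs, 1959, and 15.4 in cells. miR-6236 stood at 215 in EVs and 0.244 in cells. miR-5099 stood out in both groups, at 122 in EVs and 161 in cells. miR-1983 was at 0.0592 in EVs, well under 1, and at 5.78 in cells. Over the 5 entries with at least 1000 reads the median was 122 in EVs and 5.78 in cells, against 25.7 and 6.25 for 134 other rows.

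Some entries were concentrated in a single EV library. Among rows with at least 10 EV reads, 7 of 60 entries (11.7%) had a CPM in 1 EV library at least 3 times that in each of the others, against 6 of 444 other rows (1.35%). This criterion was chosen after the values were seen. The 2 sets are not matched in depth (median 28 reads per entry over the 6 libraries against 247), and such an excess arises more easily at low counts. Without the library where they were high, miR-8117, miR-5119, miR-5108 and miR-5110 would not have reached the limit of 10 reads. The shares are thus a description. miR-2137 had 2737, 360 and 392 reads in EVs replicates 1, 2 and 3. miR-8117 had 25, 2 and 0 reads and miR-5126 had 12, 2 and 3, so these were high in EVs replicate 1 too. The others were high in EVs replicate 3. miR-5112 had 50, 1 and 247 reads there and 1 read in all cell libraries together. miR-5119 had 7, 0 and 78, miR-5108 3, 0 and 25, and miR-5110 0, 0 and 13 reads in EVs. Each of these last had at most 1 read in cells.

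The ratio of pooled shares of miR-5112 was 101 (95% exact interval of counting error 18 to 3997) and that of miR-5119 was 28.8 (5.03 to 1150). Both ratios rest mainly on EVs replicate 3, which held 82.9% and 91.8% of their EV reads. Both passed edgeR without a filter on counts, where errors followed uneven replicates less closely. Neither was in the fit with the looser filter. With 1 cell read each, both were chosen through their EV reads, so the calls and ratios are a description.

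**Figure D4:**
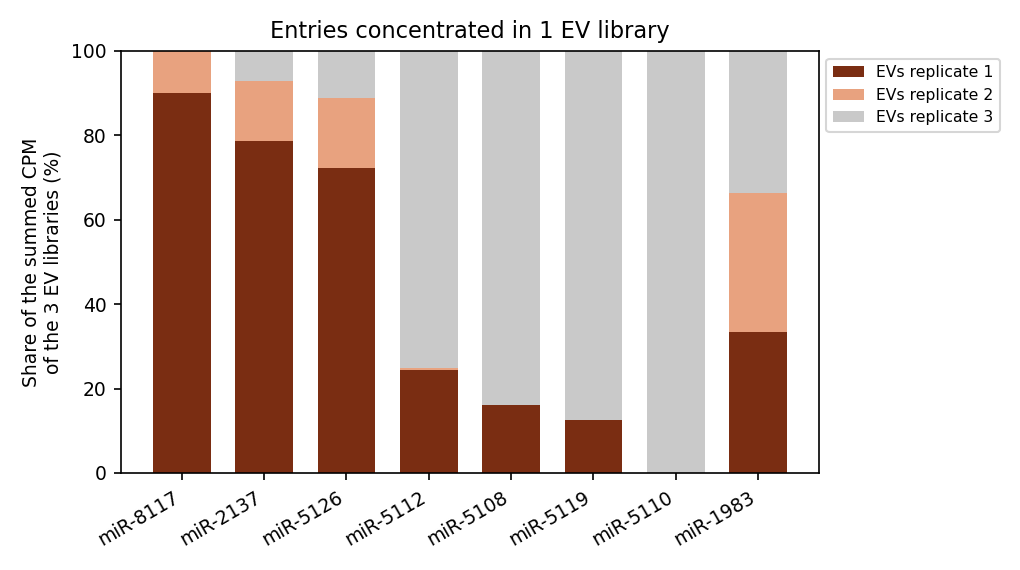
Share of the summed CPM of the 3 EV libraries (%, vertical axis from 0) that each EV library held, for the 7 entries concentrated in 1 library and, for comparison, miR-1983. EVs replicate 1 holds 90.1% for miR-8117 and 78.7% for miR-2137, EVs replicate 3 holds all of miR-5110 and 87.4% for miR-5119, and miR-1983 is split nearly evenly.

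GC-rich entries were among those high in EVs replicate 1. A GC content of at least 70% was found in 5 of 58 entries (8.62%) and in 7 of 410 other rows (1.71%). For these 5, the CPM in EVs replicate 1 over the mean of EVs replicates 2 and 3 was 7.40 for miR-2137, 5.19 for miR-5126, 2.59 for miR-6538, 1.78 for miR-6236 and 1.13 for miR-8112. For the 7 other GC-rich rows it was 0.667 to 1.17, but their GC content was only 70% to 75%. The GC content was 100% for miR-5126, 94.7% for miR-6538, 85.7% for miR-2137, 78.9% for miR-6236 and 70% for miR-8112. The sets are thus not matched in GC content, and only miR-8112 lay in the range of the other rows. The part of base composition in the spread was not tested.

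Both arms were seen for a smaller share of these entries than of the other rows. No arm is given in the name of 24 of the 70 entries (34.3%), against 2.55% of the 471 other rows, and these 24 held 15013 reads, 74.7% of the total. The other 46 entries, 20 of the 5p and 26 of the 3p arm, came from 40 hairpins, and each had a row for its other arm in the files. The other arm had at least 1 read for 30 of the 46 (65.2%) and at least 3 reads for 21 (45.7%). Among the other rows these shares were 91.5% and 83.7%. With 10 to 99 reads on the entry itself, the other arm had a read for 63.4% of 41 entries and 87.0% of 169 other rows. These rows are unlike, since 36 of the 41 entries were the more abundant arm, against 61 of the 169 other rows. A less abundant arm has a partner with reads by definition. Among the more abundant arms, the other arm was at 0 for 15 of the 36 entries and 22 of the 61 other rows. Counted by hairpin, 24 of the 40 had reads on both arms, and 6 had both arms at 10 reads or more: miR-1981, miR-3068, miR-3074, miR-3084, miR-3085 and miR-6516.

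For 16 entries the other arm was at 0 in all 6 libraries. miR-3102-3p is counted among them by miR-3102-5p, while miR-3102-5p.2-5p, another 5p row of that name, had 8 reads. The clearest was miR-3099-3p, with 981 reads and none of miR-3099-5p. The 3p share of that hairpin was at least 99.6% in EVs and 97.2% in cells by the lower bound of the 95% exact interval. miR-6944-3p had 83 reads, miR-3475-3p 81 and miR-6988-3p 36, and the other 12 had 10 to 29 reads, so few that an uncommon arm was not detectable at this depth.

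The 3p share of miR-3068 was 83.0%, 90.2% and 89.8% in EVs and 72.6%, 65.4% and 60.4% in cells. Every EV library was above every cell library, with means of 87.6% ± 4.03 and 66.1% ± 6.13 (SD, n = 3 each). The log2 ratio of 5p to 3p was lower in EVs by 1.90 (SE 0.45, limma, BH-adjusted p = 0.0123 over 187 hairpins). It passed under every alternative run for it, with adjusted p-values from limma of 0.00538 to 0.0474. Across those 187 hairpins 67 passed (35.8%). The tested ones of these entries were miR-3068, miR-1981 and miR-3099.

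miR-3085 shifted in the same direction, with a 3p share of 89.3%, 91.2% and 87.6% in EVs and 81.2%, 77.8% and 72.0% in cells. It had too few cell reads for the main test. At a minimum of 5 counts its 5p to 3p log2 ratio differed by -1.44 between EVs and cells by limma (BH-adjusted p = 0.0299). Without Cells replicate 2 the difference was -1.43 and the adjusted p from limma 0.0591. For miR-1981 the 5p arm dominated in both groups. The 3p share was 21.9%, 11.9% and 10.6% in EVs and 8.64%, 11.1% and 13.1% in cells, which overlapped (limma, BH-adjusted p = 0.514). The ratio of miR-3099 also passed (limma, BH-adjusted p = 0.0129). With its 5p arm at 0 throughout, that value holds only the 3p count and the offset and says nothing of the arms. It was lost without EVs replicate 1.

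miR-6516 went the other way. The 3p arm held 68 of 83 reads in cells (81.9%, 95% exact interval 72.0 to 89.5) and 9 of 24 in EVs (37.5%, 18.8 to 59.4), with the reads of each group pooled. By library the EV shares were 25%, 75% and 33.3% and the cell shares 77.8%, 87.9% and 78.0%. EVs replicate 2, with 4 reads on both arms, lay near the cell libraries, and no test of this ratio was run. miR-3074 and miR-3084 had at most 5 and 15 cell reads over both arms, and no difference was readable at that depth.

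**Figure D5:**
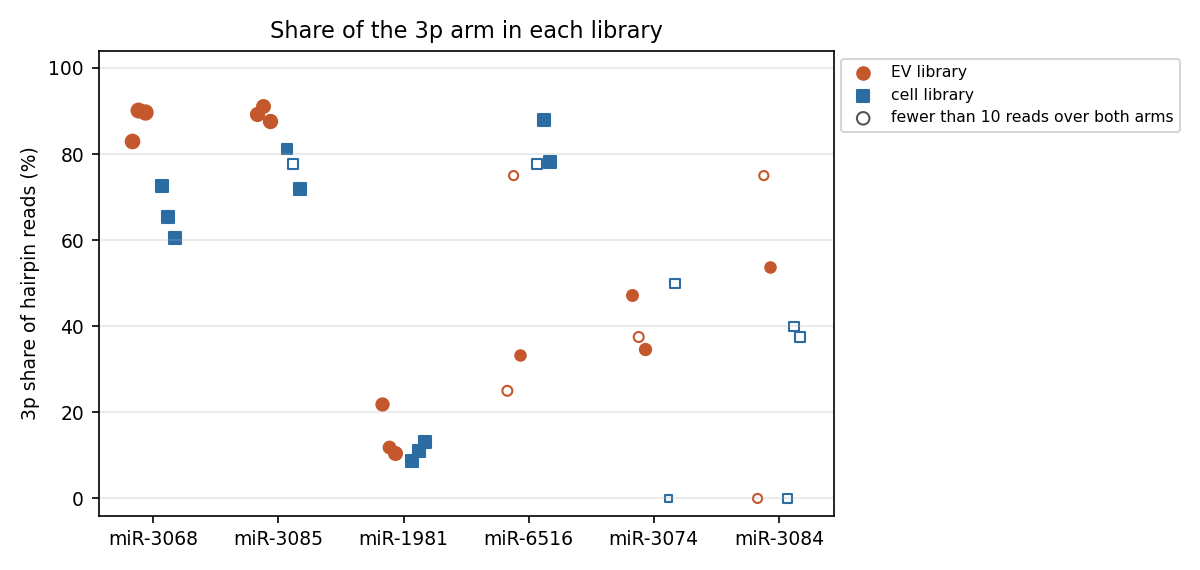
Share of hairpin reads on the 3p arm (%, vertical axis) in each library for the 6 hairpins with both arms among the entries; circles are EVs, squares are cells, larger symbols hold more reads and open symbols fewer than 10. miR-3068 and miR-3085 have higher 3p shares in every EV library, miR-1981 overlaps near the bottom, and miR-6516 has higher 3p shares in all 3 cell libraries.

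Some features of origin that the rule did not use were more frequent among these entries than among the other rows, though most entries lacked them. In GENCODE vM21 or RefSeq, 10 of 58 (17.2%) overlapped a tRNA, snoRNA or scaRNA, against 10 of 410 other rows (2.44%), and they held 4679 reads. They were miR-1983, both arms of miR-3068, miR-3084 and miR-6516, miR-3535, miR-5121 and miR-3069-3p (Scarna13). Nuclear tRNAs were sought only by their position in RefSeq, and sequences were compared only with the other small RNAs of GENCODE. An entry that matches a tRNA or ribosomal RNA copy missing from that search was thus not counted. For miR-3068 the only overlap was GENCODE's own Mir3068 gene, typed there as a snoRNA, so no separate host RNA is annotated. Its arms held 1638 (3p) and 293 (5p) of those reads. Of the 6 tested among the 10, 1 was higher in EVs (miR-3068-3p), 3 were lower and 2 did not pass, beside 28.6% higher and 28.9% lower of all 336 rows. For the entries other than miR-3068 and miR-1983, reads from the host RNA and from a miRNA made of it have the same sequence. The deposited counts do not separate them. For miR-1983 the overlap is by position only, and its sequence was not compared with that of the tRNA. A mature end within 2 bases of an exon edge, as in mirtrons, was found for 8 of 58 entries (13.8%) and 8 of 410 other rows (1.95%). They were both arms of miR-1981 and the 3p arms of miR-3082, miR-3102, miR-6911, miR-6944, miR-6988 and miR-7068. Sequences had a median length of 22 nt in both sets, but 13.8% of entries lay outside 20 to 24 nt against 3.17% of other rows. The median GC content was 54.5% against 47.6%.

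By edgeR, the tested entries with an arm in their name were 2 higher and 4 lower of 10, and those without were 0 higher and 5 lower of 10, beside the 28.6% higher and 28.9% lower of all 336 rows. Marker miRNAs of cell types are given as sums of CPM, with no test. The oligodendrocyte set (miR-219a, miR-338 and miR-138, all 8 rows with at least 10 reads) summed to between 33913 and 36443 CPM in EVs and between 34284 and 43710 CPM in cells. That sum hides rows that went opposite ways. miR-219a-5p had 3243, 3452 and 4415 reads in EVs and 570, 405 and 724 in cells. miR-219a-2-3p had 6068, 3521 and 9065 against 4605, 2546 and 4258. Relative to library totals, the former was higher and the latter lower in every EV library than in every cell library. Sums were higher in EVs for the neuron set (6 of 7 rows with at least 10 reads, 27369 to 34816 CPM against 10039 to 17122), the liver set (4 of 7, 6196 to 11214 against 557 to 707) and the red cell set (6 of 7, 4416 to 8561 against 301 to 352). In EVs most of these sums came from single rows, miR-124-3p, miR-122-5p and miR-451a, so they need not hold for the other rows of each set. The endothelial and mesenchymal set also had a higher sum in EVs (7 of 8 rows, 2712 to 5194 against 425 to 1127 CPM). The muscle set was lower in EVs (3 of 7 rows, 4 at 0, 159 to 545 against 615 to 1184 CPM), and the myeloid set overlapped (5 of 8 rows, 612 to 1941 against 1592 to 4571 CPM). Their part in the values of the high-numbered entries was not tested.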

How the data were processed

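Per the labels, RNA of 15 to 200 nt was sequenced after ligation of adapters with 4 random bases each and 14 PCR cycles. The authors deposited raw counts per mature miRNA, 1906 rows in each of 6 tables. Read processing used Bowtie 0.12.8, featureCounts 1.4.6-p4, cutadapt 1.7.1 and bcl2fastq 1.8.4 on build NCBIM37 (mm9), per the submitters' processing notes. Not given in the sources used here are the settings, the miRNA annotation release and the treatment of strand, of random bases and of reads with several matches, so reads of repeated or overlapping loci may be shared or lost. Sequences and gene overlaps were matched by name to RefSeq and GENCODE vM21 tables of GRCm38, another build, so no coordinates are given.

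The members and lists were chosen with earlier results of these data known. The labels gave groups and replicate numbers. EVs and cells were compared with edgeR 4.0.16 (glmQLFit and glmQLFTest, two-sided, TMM after filterByExpr at a minimum count of 10, group as the only term, R 4.3.3) over 336 rows, with BH adjustment. Arm ratios, log2((5p + 0.5)/(3p + 0.5)), were tested with limma 3.58.1 in the 187 hairpins where each library had 10 or more counts on the arms together. CPM used total counts without the TMM factor. A read was worth 1.45 to 3.19 CPM in EV and 4.94 to 7.88 CPM in cell libraries, and 3 reads over a group, the limit for a count of 0, 2.09 and 6.18 CPM. Libraries of a group differed by more than sampling noise (chi-square 4.38 to 20.4 times its degrees of freedom). Values in every library are given for entries called in the edgeR fit, the 10 with most reads, hairpins with both arms among the members and the 5 tested ones with the smallest change. Both scripts were tested on simulated data.

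Deviations from the group means of same-numbered EV and cell libraries correlated at 0.115, 0.106 and 0.256 over 336 rows, and those of different numbers at -0.148 to 0.0213. Every same-numbered pair was above 0.1, so the numbers were taken to pair the libraries in an alternative fit, the replicate block. The main fits did not use the pairing. Deviations cancel within each group, so positive same-numbered values push the others negative, and the evidence for pairing is weak. The labels do not say what a number shares. Alternatives were other scalings, DESeq2 1.42.0, limma-voom, looser filters, thinning, the replicate block, summing identical sequences, other limits for the members and leaving out each library.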

Additional observations from a re-analysis of the deposited data

How the results depend on the processing

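Of 289 refits of a named member, 265 kept its direction and its side of the threshold. miR-1949, miR-1981-5p, miR-3085-3p, miR-5099, miR-6239, miR-6516-3p and miR-8114 kept their calls under all alternatives in which they were fitted. Of these, miR-1949 and miR-6516-3p passed the main filter through cell libraries alone, so their calls are a description. The count of members called higher in EVs, 2 as reported, was 5 with library size only, 7 with no filter on counts and 1 to 3 on leaving out each library (1 without Cells replicate 2 or 3). Among those 7, miR-3106-5p, miR-8117, miR-5112 and miR-5119 were chosen through their EV reads, so that count is a description. The count called lower, 9, was 16 with no filter and 17 at 10 CPM in 3 libraries, where more members were tested, and 7 to 12 on leaving out each library. Among those 9, miR-1949, miR-6516-3p and miR-1981-3p passed the main filter through cell libraries alone, so that count is a description too. With the replicate block (the paired analysis) the counts stayed at 2 and 9. The block changed no call, but the log2 fold change of miR-2137 was -0.22, as it was -0.27 with limma-voom and -1.17 to 0.88 on leaving out each library (-1.17 without EVs replicate 1). For miR-3475-3p it was 0.17 with library size only and -0.64 to 0.0099 on leaving out each library (0.0099 without Cells replicate 3), and for miR-5121 -0.032 to 0.23 (-0.032 without EVs replicate 2). The cause was not tested. Members numbered 3000 or higher held 0.645% of reads in EVs and 0.860% in cells. The count of arm ratios that changed, 2, was 1 to 2 on leaving out each library. It was 1 without hairpins that have an arm at 0 in every library, an alternative chosen after seeing the data. The other arm had at least 10 reads for 12 of 46 members. Depth limits all members under 100 reads, 54 of 70.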
